A study of Mus musculus with 8 samples.

Results

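The 9 genes described here, P2ry12, Cx3cr1, Tmem119, Csf1r, Fcer1g, Tyrobp, Aif1, Trem2 and C1qa, mark microglia or act when microglia take up dying cells. They were chosen by name as microglia genes, with earlier results of these data known. Each had 1 probe set on the array that names that gene and no other, so all 9 were measured, among 19938 genes in all. The data are 8 arrays of RNA from layers II-IV of the neocortex, cut out by laser from mouse pups at postnatal day 5, with 1 array per pup. In 4 pups, the mutants, both Bcl6 alleles were floxed and 1 copy of a Cre gene lay in the Nex locus (Bcl6 flox/flox;Nex Cre/+). The 4 controls had the same floxed Bcl6 alleles and no Cre (Bcl6 flox/flox;Nex +/+). Nex, also called Neurod6, is a gene of excitatory cortical neurons, so Cre is made in those neurons and not in microglia. Mutant pups also lack 1 intact Nex allele, and controls lack Cre, so the deletion and the Cre allele cannot be told apart. Per the series title, the study is about the developmental death of cortical projection neurons, and the question here was whether the microglia genes vary together from pup to pup and differ between genotypes.

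Microglia are the resident macrophages of the brain. They come from the yolk sac, not from the neural progenitors that give rise to cortical neurons, and in the early postnatal cortex they clear cells that die. Nucleotides released by cells act on the receptor P2ry12, the neuronal chemokine Cx3cl1 acts on Cx3cr1, and Csf1 or Il34 acts on Csf1r, which keeps microglia alive. Trem2 binds lipids and apoptotic cells and signals through the adaptor Tyrobp, while Fc receptors signal through the adaptor Fcer1g. Both adaptors carry an activation motif that recruits the kinase Syk. C1qa is a chain of the complement protein C1q, which tags material for uptake.

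The values of different probe sets cannot be set against each other as amounts of RNA, since probes differ in brightness. All 9 genes had a mean over the 8 arrays below the median of 5.55 of the 19938 genes, between 3.60 for Aif1 and 5.42 for Cx3cr1 (log2). The deposited table holds no detection calls, so no gene could be marked as undetected. An indication of how an absent transcript reads came from Y-linked genes. Kdm5d, Eif2s3y and Uty read 2.29 to 3.09 in mutant replicates 1 and 4, where Xist read 9.76 to 9.78, and 5.47 to 7.79 in the other 6 arrays, where Xist read 2.64 to 3.41. The lowest Aif1 value, 3.31 in control replicate 2, lay within that last range. These few probe sets do not set a floor for the 9 genes. In genes of the sex chromosomes mutant replicates 1 and 4 thus stood apart from the other 6 arrays, and no control did. High Xist with low Y-linked signal is the pattern of female pups, and the other 6 arrays showed that of males. The genotypes were therefore unbalanced in this pattern. Differences are also given without mutant replicates 1 and 4 where that moved a gene across an unadjusted p of 0.05 or changed the value of a member by over 1.5 times. The mean log2 value of 9 neuron genes, Snap25 and Slc17a7 among them, ran from 9.96 to 10.08 in mutants and from 9.96 to 10.14 in controls, and the captured layers were not checked against other layers. The targeted gene did not show the deletion. The Bcl6 probe set read 6.61, 6.76, 6.96 and 6.78 in the arrays labelled mutant, against 6.55, 6.58, 6.25 and 6.23 in controls, and no source used here says which probes fall within the deleted exons. Neurod6, whose locus carries the Cre gene, read 8.84, 9.07, 8.69 and 8.73 in mutants, against 9.17, 9.41, 9.15 and 9.15 in controls. The difference was -0.39 ± 0.09 (SE, limma unadjusted p = 0.00115, adjusted 0.535). That of Bcl6 was 0.37 ± 0.10 (SE, limma unadjusted p = 0.00243, adjusted 0.655). Neither gene overlapped between genotypes, as was so for 2.75% of all genes. Neurod6 was thus lower and Bcl6 higher in the arrays labelled mutant, and every direction below rests on the labels.

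Promoters were examined because microglia genes share the transcription factor PU.1, which binds purine-rich sites around GGAA. Of the 9 genes, 5 had an entry in the RefSeq promoter table (GRCm38.p6), namely P2ry12, Cx3cr1, Fcer1g, Aif1 and Trem2. The 250 bases before the gene start are shown for P2ry12 (chr3:59262986-59263235, minus strand), Fcer1g (chr1:171234350-171234599, minus strand) and Trem2 (chr17:48346151-48346400, plus strand), the 3 genes with the smallest p between genotypes, each written 5′ to 3′ along the gene's strand with matches to the PU box GAGGAA, on either strand, in capitals.
P2ry12: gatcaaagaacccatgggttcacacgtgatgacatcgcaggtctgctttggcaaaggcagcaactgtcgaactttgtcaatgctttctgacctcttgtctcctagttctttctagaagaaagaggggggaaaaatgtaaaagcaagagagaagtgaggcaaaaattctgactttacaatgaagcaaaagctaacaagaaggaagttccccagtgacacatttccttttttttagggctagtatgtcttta
Fcer1g: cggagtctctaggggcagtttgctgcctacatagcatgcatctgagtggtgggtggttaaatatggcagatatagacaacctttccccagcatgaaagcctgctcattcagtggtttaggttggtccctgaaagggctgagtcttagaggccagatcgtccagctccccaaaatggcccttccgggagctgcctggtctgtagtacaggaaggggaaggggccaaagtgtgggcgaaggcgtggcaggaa
Trem2: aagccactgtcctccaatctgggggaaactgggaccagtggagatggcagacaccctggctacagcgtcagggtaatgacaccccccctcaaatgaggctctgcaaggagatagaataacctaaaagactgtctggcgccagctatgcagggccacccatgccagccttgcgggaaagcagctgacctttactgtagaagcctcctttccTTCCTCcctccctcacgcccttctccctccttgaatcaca
The letters GAGGAA occurred once in the Trem2 window and once in that of Aif1, on the minus strand relative to the gene in both, with no match in the windows of P2ry12, Fcer1g and Cx3cr1. Of all 32851 windows of this length, 23.3% held the motif. The shorter core GGAA was not counted, and it occurs in each of the 3 windows shown. The core of the interferon-stimulated response element (GAAA, any 2 bases, GAAA, on either strand) occurred in the Aif1 window and in none of the other 4, and in 2.98% of all windows. A match describes letters and not a bound site.

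No member differed between genotypes past the threshold. In limma, which fits all 19938 genes at once and borrows their spread, 0 of the 9 genes had a Benjamini-Hochberg adjusted p under 0.05, and the smallest adjusted p was 0.907. At that threshold 0.0652% of all genes passed, 13 in number, with 0.0502% higher and 0.0150% lower in mutants. At an unadjusted p under 0.05, 2 of the 9 were found, Fcer1g and P2ry12, both lower in mutants, where 4.91% of all genes were at that p and 3.28% were at that p and lower. Both genes were dim and variable. Fcer1g averaged 4.06 and P2ry12 3.96 over the 8 arrays, and 26.6% and 25.1% of all genes had a lower mean. Their SD over the 8 arrays was above that of 94.8% and 94.3% of all genes. Of the 9 differences (mutant minus control, log2) 7 were negative and 2 positive, with a median of -0.11, beside 55.4% negative and a median of -0.0096 over all genes. The mutant and control values overlapped in each of the 9 genes, while 2.75% of all genes had groups that did not overlap. In bulk tissue fewer microglia and less RNA per microglial cell cannot be told apart.

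**Figure D1:**
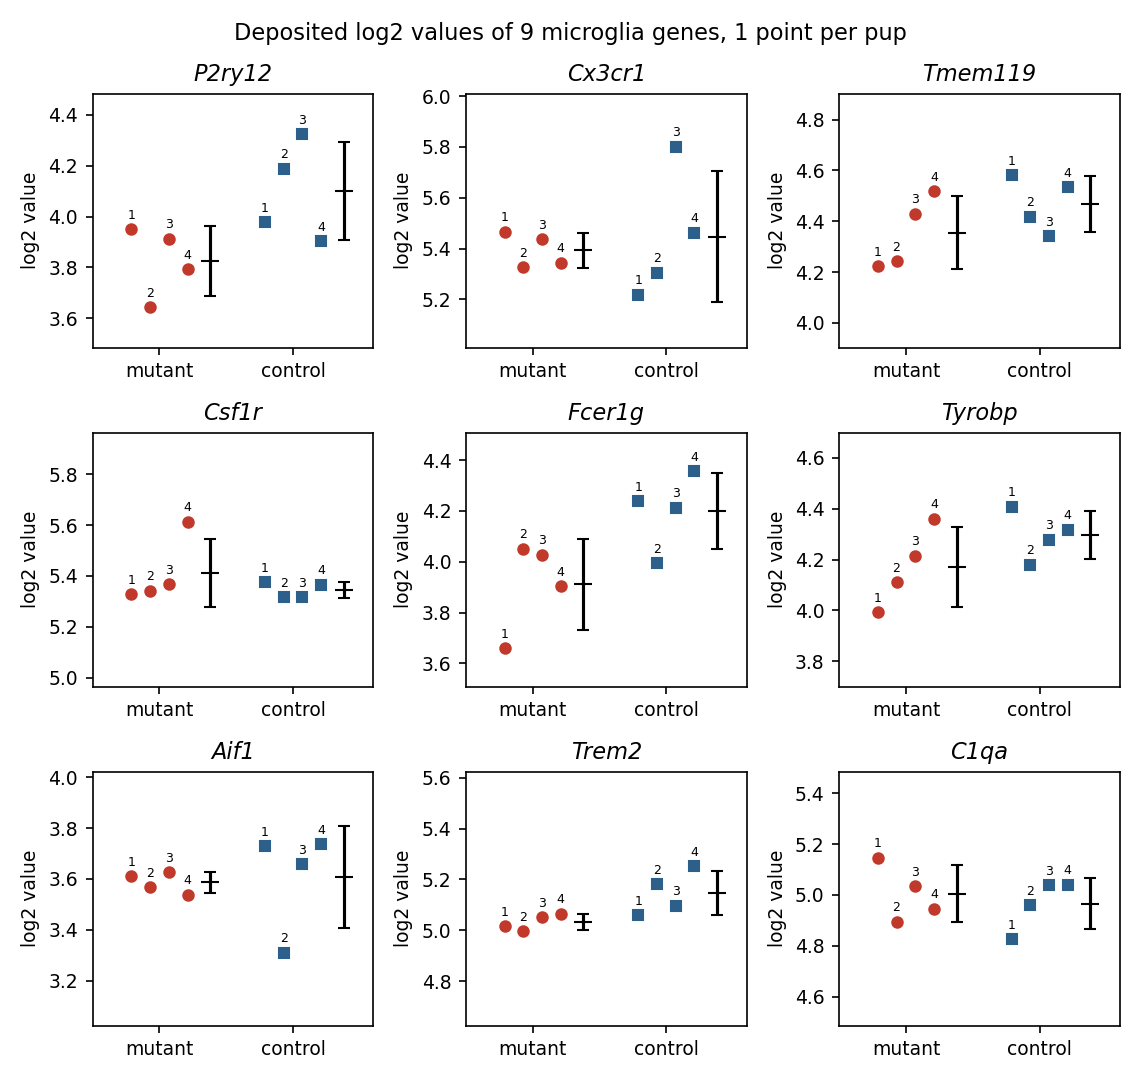
Deposited log2 values (y axis, a window of 1 log2 unit in each panel) of the 9 genes in mutant pups (red circles) and control pups (blue squares), with the replicate number at each point and the mean and SD of 4 pups beside each group. The groups overlap in every panel, and the widest gaps between means are those of Fcer1g and P2ry12.

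The receptors were taken first. P2ry12, the purinergic receptor by which resting microglia sense nucleotides, read 3.95, 3.64, 3.91 and 3.79 (log2) in mutant replicates 1 to 4, against 3.98, 4.19, 4.32 and 3.90 in control replicates 1 to 4. Mutant replicates 2 and 4 lay below all controls, and control replicate 4 lay among the mutants. The difference was -0.27 ± 0.10 (SE; 95% interval -0.49 to -0.057), with an unadjusted p of 0.0175 and an adjusted p of 0.932 in limma. In the exact two-sided permutation test of this gene p was 0.0857, where 0.0286 is the smallest that 4 against 4 arrays allow. Without control replicate 3 the difference was -0.20 (limma unadjusted p = 0.0623) and without mutant replicate 2 it was -0.21 (0.0608).

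Cx3cr1, the fractalkine receptor, read 5.47, 5.33, 5.44 and 5.34 in mutants, against 5.22, 5.30, 5.80 and 5.46 in controls. The mutant values lay within the range of the controls, whose SD of 0.26 was larger than the 0.069 of the mutants because control replicate 3 was the highest and control replicate 1 the lowest of all 8. The difference was -0.053 ± 0.11 (SE), and it was 0.065 without control replicate 3, so that the sign rested on that array. Csf1r, the receptor tyrosine kinase on which microglial survival depends, read 5.33, 5.34, 5.37 and 5.61 in mutants, against 5.37, 5.32, 5.32 and 5.37 in controls. Mutant replicate 4 stood above the other 7 arrays, which lay within 5.32 to 5.37. The difference of 0.069 ± 0.074 (SE) was 0.0026 without that array and 0.011 without mutant replicates 1 and 4.

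Trem2, the lipid receptor of phagocytic microglia, was the least variable of the 9 genes over the 8 arrays. It read 5.02, 5.00, 5.05 and 5.07 in mutants, against 5.06, 5.18, 5.10 and 5.25 in controls. Mutant replicates 1 to 3 lay below all controls and mutant replicate 4 lay between control replicates 1 and 3. The difference was -0.12 ± 0.065 (SE; 95% interval -0.26 to 0.026), with an unadjusted p of 0.101 and an adjusted p of 1.00 in limma and an exact permutation p of 0.0571. Its sign was negative in all 19 alternative fits that held the gene.

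The adaptors came next. Fcer1g, the common gamma chain of Fc receptors, read 3.66, 4.05, 4.03 and 3.90 in mutants, against 4.24, 3.995, 4.21 and 4.36 in controls. Mutant replicates 1 and 4 lay below all controls, and control replicate 2 lay among the mutants. The difference was -0.29 ± 0.10 (SE; 95% interval -0.50 to -0.074), which is 0.818 times the control level on the linear scale, with an unadjusted p of 0.0125 and an adjusted p of 0.907 in limma and an exact permutation p of 0.0857. Mutant replicates 1 and 4 are the arrays with high Xist, and without them the difference was -0.16 ± 0.10 (SE; limma unadjusted p = 0.148). With Y-linked expression added to the fit it was -0.17 ± 0.11 (SE; unadjusted p = 0.145). For P2ry12 the difference without both arrays was -0.32 ± 0.13 (SE; unadjusted p = 0.0309).

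Tyrobp, the adaptor known as DAP12 that pairs with Trem2, read 3.99, 4.11, 4.22 and 4.36 in mutants, against 4.41, 4.18, 4.28 and 4.32 in controls. Mutant replicates 1 and 2 lay below all controls, while mutant replicate 4 was second only to control replicate 1. The difference was -0.13 ± 0.085 (SE), with an unadjusted p of 0.165 in limma. It was -0.067 without mutant replicate 1 and -0.19 without mutant replicate 4, where the unadjusted p was 0.0420.

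The remaining 3 genes are markers and an opsonin. Tmem119, a membrane protein used to tell microglia from other macrophages, read 4.22, 4.24, 4.43 and 4.52 in mutants, against 4.58, 4.42, 4.34 and 4.53 in controls. As for Tyrobp, mutant replicates 1 and 2 were the lowest of the 8 arrays and the other 6 were mixed, and the difference was -0.11 ± 0.085 (SE). It was -0.071 without mutant replicate 1, the lowest array. Aif1, the actin-bundling protein Iba1, read 3.61, 3.57, 3.63 and 3.54 in mutants, against 3.73, 3.31, 3.66 and 3.74 in controls. The mutants lay between the lowest control, replicate 2, and the other 3, and the difference was -0.022 ± 0.091 (SE), with a positive sign after quantile normalization (0.0089), a value of -0.12 without control replicate 2 and of -0.011 without mutant replicates 1 and 4. C1qa read 5.15, 4.89, 5.03 and 4.95 in mutants, against 4.82, 4.96, 5.04 and 5.04 in controls. Mutant replicate 1 was the highest and control replicate 1 the lowest of all, and the difference of 0.039 ± 0.077 (SE) was -0.0015 without mutant replicates 1 and 4. All 3 had an adjusted p of 1.00 in limma.

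**Figure D2:**
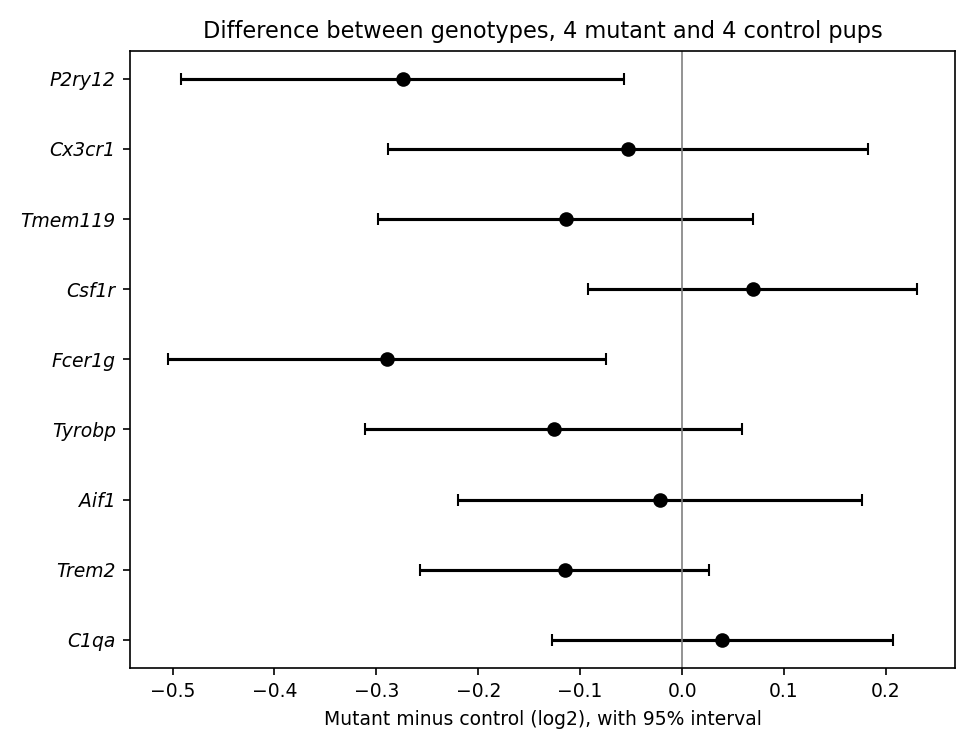
Change in mutants relative to controls (x axis, log2) of the 9 genes (y axis), with points for limma's estimate and bars for its 95% interval (4 mutant and 4 control pups). The intervals of P2ry12 and Fcer1g lie below 0 and the other 7 include it, and none passes the threshold over all genes.

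The 95% intervals bound what these arrays allow. Over the 9 genes the lowest limit was -0.50, for Fcer1g, and the highest was 0.23, for Csf1r. The SE of the 9 differences ran from 0.065 to 0.11, and its median over all genes was 0.079. The mean log2 value of the 9 genes was 4.49, 4.46, 4.57 and 4.56 in mutant replicates 1 to 4, against 4.60, 4.54, 4.67 and 4.66 in control replicates 1 to 4. Control replicate 2 lay below mutant replicates 3 and 4. Mutant replicate 2 was lowest, with 0 of the 9 genes above their own mean over the arrays, and control replicates 3 and 4 were highest, with 7 of 9 each.

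The values of the 9 genes did not vary together as a block over the 8 pups. All 9 lay below the median level of all genes, so weak signal and a lack of shared variation cannot be told apart. Their 36 pairs had Pearson's r from -0.55 to 0.90 with a median of 0.13, and 23 of 36 were positive. Over all pairs of the 19938 genes the median r was 0.017, and 39.7% of those pairs had an r at or above 0.13. An r of at least 0.7 was found in 1 of the 36 pairs, a share of 2.78%, beside 3.29% of all gene pairs. Exact permutation of the 8 arrays gave an adjusted p under 0.05 (Benjamini-Hochberg over the 36 pairs) for 0 pairs by Pearson's r and 0 by Spearman's rho, with 1 and 3 pairs at an unadjusted p under 0.05. The pairs share arrays and genes and are not independent. After subtracting the mean of each genotype the median r was 0.053.

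**Figure D3:**
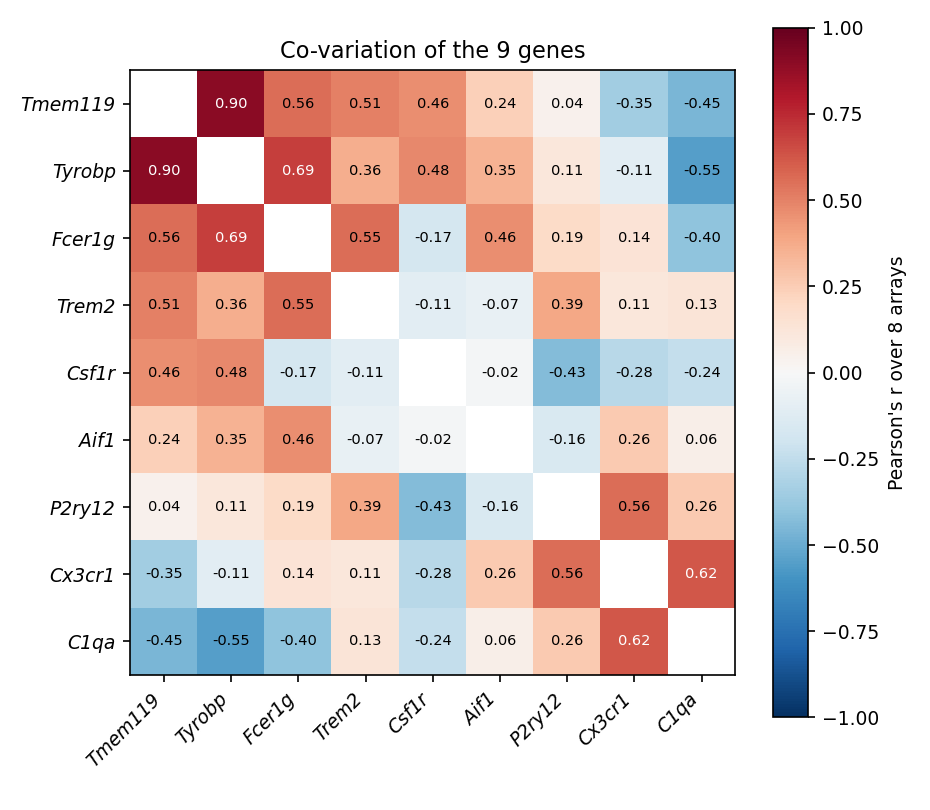
Pearson's r over 8 arrays (colour, from -1 in blue to 1 in red, with the value printed) between each pair of the 9 genes (both axes). Tmem119 and Tyrobp have the highest r, 0.90, and C1qa has negative values with Tmem119, Tyrobp and Fcer1g.

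Tmem119 and Tyrobp formed the closest pair. Their r was 0.90 (exact permutation p = 0.00250, adjusted 0.0902 over the 36 pairs) and their rho was 0.90 (p = 0.00456, adjusted 0.164, exact permutation). Without mutant replicates 1 and 2, the arrays farthest from the median of Tmem119, r was 0.74, and in fits that left out 1 array it stayed between 0.86 and 0.96. It was 0.87 after subtracting the mean of each genotype and 0.85 without the arrays with high Xist. Both genes were lowest in mutant replicates 1 and 2 and highest in control replicate 1.

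Fcer1g and Tyrobp, both adaptors, had an r of 0.69 (exact permutation p = 0.0578, adjusted 0.797) and a rho of 0.52 (p = 0.197, adjusted 0.682, exact permutation). Their r was 0.29 without mutant replicate 1 and control replicate 4, the arrays farthest from the median of Fcer1g, and 0.77 without the arrays with high Xist. Leaving out 1 array it ran from 0.35 to 0.89, and it was 0.55 after subtracting the mean of each genotype. Cx3cr1 and C1qa had an r of 0.62 (exact permutation p = 0.0989, adjusted 0.797) and a rho of 0.86 (p = 0.0107, adjusted 0.193, exact permutation), and r was 0.87 without control replicates 1 and 3. At the other end Tyrobp and C1qa had an r of -0.55 (exact permutation p = 0.156, adjusted 0.797) and a rho of -0.40 (p = 0.327, adjusted 0.682, exact permutation), which became 0.48 without mutant replicate 1 and control replicate 1 and -0.15 without the arrays with high Xist.

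Against the mean of the other 8 genes, each scaled over the arrays, r was 0.61 for Tyrobp, 0.54 for Fcer1g, 0.50 for Tmem119 and 0.49 for Trem2. It was 0.24 for P2ry12 and Cx3cr1 and 0.28 for Aif1, and it was below 0 for Csf1r (-0.070) and C1qa (-0.13). These values are over 8 arrays and are given as a description. Among the other lists of more than 2 tested genes, leaving out the sex chromosome genes, the median r between members of a list ran from -0.098 for border macrophage genes to 0.53 for endothelial and mural genes. It was 0.041 for other microglia genes, 0.070 for phagocytosis and complement genes, 0.072 for adaptor signalling genes, -0.047 for reactive microglia genes, 0.0058 for blood leukocyte genes, 0.076 for the oligodendrocyte lineage, 0.15 for neuron genes, 0.28 for astrocyte genes and 0.31 for the ligands. At the top of that range, the 10 endothelial and mural genes (Cldn5, Pecam1, Cdh5, Flt1 and others) had a positive r in 45 of their 45 pairs, a median of 0.53, and an r of at least 0.7 in 10 pairs, or 22.2%. The difference between the lists and the 9 genes was not tested. The mean log2 value of the endothelial and mural list ran from 6.27 to 6.54 in mutants and from 6.39 to 6.46 in controls.

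Known partners were then paired, in 11 relations of physical contact, ligand binding or shared receptor family. These 11 pairs were chosen after values were seen. Their p-values, adjusted over the 11, do not cover that choice and are given as a description. The 3 chains of C1q are made together, and C1qa had an r of 0.47 with C1qb (exact permutation p = 0.242, adjusted 0.592 over the 11; rho 0.69, p = 0.0694, adjusted 0.612; r = 0.69 without the 2 arrays farthest from the median of C1qa). With C1qc its r was -0.13 (exact permutation p = 0.747, adjusted 0.871; rho -0.33, p = 0.428, adjusted 0.612; 0.25 without the 2 farthest arrays). C1qb read 5.10, 4.94, 5.02 and 5.07 in mutants, against 4.97, 4.83, 5.50 and 5.41 in controls, and C1qc averaged 4.26 ± 0.11 in mutants and 4.40 ± 0.21 in controls (SD, n = 4 each). Control replicates 3 and 4 were highest and control replicates 1 and 2 low for C1qb, so that the controls spanned the mutants. Trem2 and its adaptor Tyrobp had an r of 0.36 (exact permutation p = 0.377, adjusted 0.592; rho 0.48, p = 0.243, adjusted 0.612; 0.72 without the 2 arrays farthest for Trem2 and 0.39 without those farthest for Tyrobp). After subtracting the mean of each genotype their r was 0.025, and it was 0.28 without the arrays with high Xist.

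Cx3cr1 and its ligand Cx3cl1, which neurons make, had the highest r of the 11, 0.73 (exact permutation p = 0.0346, adjusted 0.381; rho 0.62, p = 0.115, adjusted 0.612). It was 0.68 without the 2 arrays farthest from the median of Cx3cr1, 0.75 after subtracting the mean of each genotype and 0.77 without the arrays with high Xist. Cx3cl1 read 7.75, 7.54, 7.86 and 7.83 in mutants, against 7.79, 7.66, 8.16 and 8.12 in controls, a difference of -0.18 ± 0.12 (SE; limma adjusted p = 1.00). Leaving out 1 array it ran from -0.28 without control replicate 2 to -0.11 without control replicate 3. Control replicates 3 and 4 stood above the other 6 arrays, and control replicates 1 and 2 lay among the mutants. Csf1r had an r of -0.16 with Csf1 and of 0.49 with Il34, its ligands (exact permutation p = 0.812 and 0.174, adjusted 0.871 and 0.592; rho -0.29 and 0.24, p = 0.501 and 0.582, adjusted 0.612 and 0.640; 0.22 and 0.37 without the 2 farthest arrays). P2ry12 had an r of -0.32 with its relative P2ry13 (exact permutation p = 0.446, adjusted 0.613; rho -0.40, p = 0.327, adjusted 0.612; -0.53 without the 2 farthest arrays). Fcer1g had an r of -0.062 with Fcgr1, 0.37 with Fcgr3 and 0.54 with Fcgr4, Fc receptors that need its chain (exact permutation p = 0.871, 0.371 and 0.170, adjusted 0.871, 0.592 and 0.592; rho 0.12, 0.29 and 0.48, p = 0.793, 0.501 and 0.243, adjusted 0.793, 0.612 and 0.612). Without the 2 arrays farthest for Fcer1g these r were -0.51, -0.023 and 0.52. C1qb and C1qc had an r of 0.38 (exact permutation p = 0.358, adjusted 0.592; rho -0.29, p = 0.501, adjusted 0.612), which turned to -0.81 without control replicates 3 and 4.

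**Figure D4:**
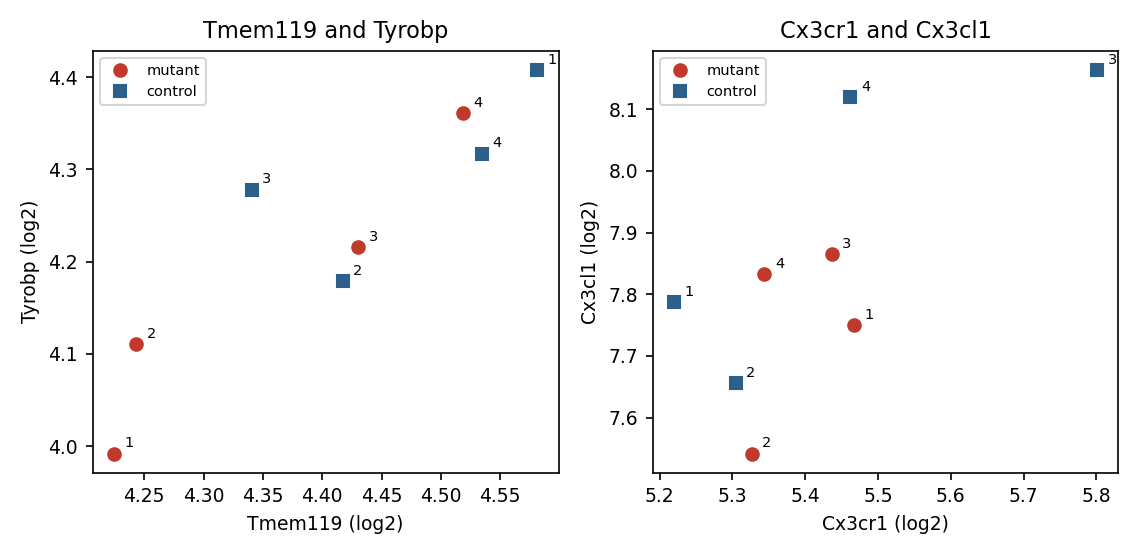
Deposited log2 values of Tmem119 (x axis) and Tyrobp (y axis) on the left, and of Cx3cr1 (x axis) and its ligand Cx3cl1 (y axis) on the right, with a point per pup (red circles mutant, blue squares control) labelled by replicate number. On the left mutant replicates 1 and 2 lie lowest on both axes, and mutant replicates 3 and 4 lie among the controls. On the right control replicates 3 and 4 lie at the top.

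Lists of related genes were read in the same limma fit to place the 9 genes. Of 28 other microglia genes tested out of 32 listed, 0 passed the threshold, 2 were lower and 0 higher at an unadjusted p under 0.05, 17 differences were positive and 11 negative, and the median was 0.016. Olfml3, a secreted protein enriched in microglia, read 4.88, 4.77, 5.21 and 5.16 in mutants, against 5.16, 5.15, 5.38 and 5.27 in controls (-0.24 ± 0.10, SE; limma unadjusted p = 0.0373, adjusted 0.989). Without mutant replicates 1 and 4 it was -0.25 (unadjusted p = 0.0679), and without mutant replicate 2 it was -0.16 (0.128). Selplg, the selectin ligand PSGL-1, read 4.15, 4.30, 4.34 and 4.31 in mutants, against 4.60, 4.38, 4.41 and 4.39 in controls (-0.17 ± 0.07, SE, limma unadjusted p = 0.0402, adjusted 0.996). It was -0.13 without mutant replicates 1 and 4 (unadjusted p = 0.189), -0.12 without control replicate 1 (0.134), and had a p of 0.0701 with the replicate block. Hpgds, a prostaglandin D synthase, read 0.18 ± 0.09 (SE; unadjusted p = 0.0566). For Hpgds it was 0.299 without mutant replicates 1 and 4 (unadjusted p = 0.00281, adjusted 0.983), 0.264 without mutant replicate 4 alone, 0.297 with the Y-linked covariate (unadjusted p = 0.00585), and had an unadjusted p of 0.0269 after quantile normalization and 0.0320 after cyclic loess. Sall1 and Spi1, transcription factors of microglial identity of which Spi1 encodes PU.1, read 0.021 ± 0.074 and 0.011 ± 0.072 (SE), with a negative sign in some fits that left out 1 array.

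Genes of uptake and complement showed no call either. Of 37 phagocytosis and complement genes tested out of 38 listed, 0 passed the threshold and 0 had an unadjusted p under 0.05 in limma, 18 differences were positive and 19 negative, and the median was -0.0048, which turned positive after quantile normalization (0.0036), median centring (0.0068) and cyclic loess (0.0075). The members of smallest p were Rac2, a GTPase of the actin machinery of blood cells (-0.21 ± 0.10, SE), Npc2, a lysosomal cholesterol carrier (0.12 ± 0.06), and Cd14, a pattern recognition receptor (0.18 ± 0.09). Rac2 was at -0.32 without mutant replicates 1 and 4 (limma unadjusted p = 0.00463, adjusted 0.998), and Cd14 at 0.27 without control replicate 4. Of 20 genes of adaptor signalling 0 passed, 1 was lower at an unadjusted p under 0.05, 15 differences were negative and 5 positive, and the median was -0.059, or -0.038 after quantile normalization. That 1 gene was Hcst, the adaptor DAP10, which read 4.51, 4.78, 4.87 and 4.78 in mutants, against 4.95, 4.90, 5.02 and 4.85 in controls (-0.20 ± 0.08, SE; limma unadjusted p = 0.0337, adjusted 0.988). It was -0.11 without mutant replicates 1 and 4 (unadjusted p = 0.227) and -0.12 without mutant replicate 1 alone (0.110). Sirpa, the receptor for Cd47, read -0.15 ± 0.07, and Ptpn6, a phosphatase that opposes these adaptors, read -0.12 ± 0.08 (SE).

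Reactive microglia genes had a median of 0.027 over 19 tested out of 20 listed, with 0 calls and 1 gene, Lpl, at an unadjusted p under 0.05 (-0.24 ± 0.11, SE; limma adjusted p = 0.996). Lpl, a lipoprotein lipase, is also made by neurons, and its unadjusted p was 0.104 without mutant replicates 1 and 4. Lgals3 and Ccl9 read 0.15 ± 0.07 and -0.19 ± 0.09 (SE), and Ccl9 was at -0.11 without control replicate 1. The 8 ligands had a median of -0.0062, with 4 positive and 4 negative and 0 at either p, and the median turned positive after quantile normalization (0.0032), median centring (0.0054) and cyclic loess (0.0049). Csf1 read 0.14 ± 0.12 and Cd47, a signal against uptake, -0.035 ± 0.082 (SE), or 0.041 without control replicate 2.

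**Figure D5:**
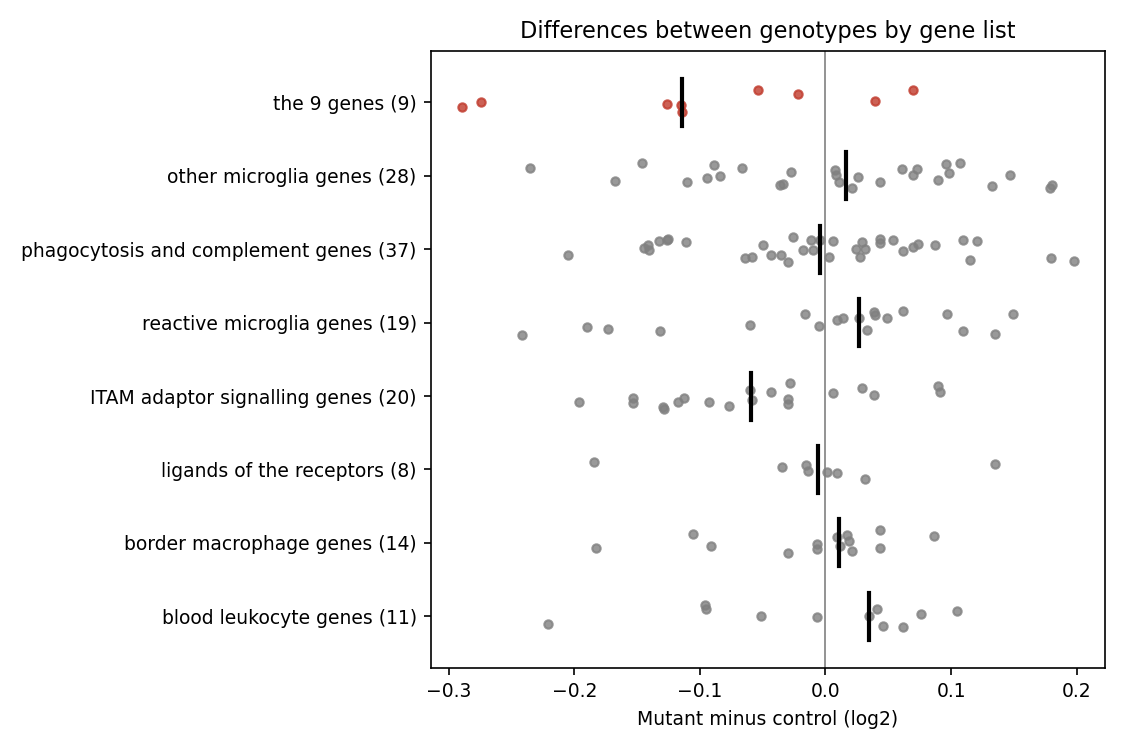
Change in mutants relative to controls (x axis, log2) of single genes, drawn as points, in 8 gene lists (y axis, with the number of genes tested), the 9 microglia genes in red at the top, and a black tick for the list's median. The 9 genes have a median of -0.11, the other lists lie between -0.059 and 0.034, and no gene shown passes the threshold over all genes.

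Markers of other cells in the capture were read beside these values. Border macrophage genes had a median of 0.011 over 14 genes (8 positive, 6 negative), and their mean log2 level ran from 3.80 to 3.88 in mutants and from 3.83 to 3.89 in controls. Clec10a, Cd163 and Maf of that list read -0.18 ± 0.09, -0.091 ± 0.078 and 0.086 ± 0.064 (SE), and Clec10a was at -0.20 without mutant replicates 1 and 4 (limma unadjusted p = 0.0486). Blood leukocyte genes had a median of 0.034 over 11 tested out of 12, with a mean level of 3.18 to 3.30 in mutants and 3.20 to 3.33 in controls, and Cd3e, Nkg7 and Plac8 read -0.22 ± 0.12, -0.095 ± 0.084 and 0.10 ± 0.10 (SE). Of the red blood cell genes 2 of 8 were tested, Slc4a1 (-0.20 ± 0.08, SE, limma unadjusted p = 0.0357) and Alas2 (-0.097 ± 0.075). Their mean level was 4.64 to 4.87 in mutants and 4.88 to 5.00 in controls. Slc4a1 was at -0.13 without mutant replicate 2 and at -0.30 without mutant replicates 1 and 4. Astrocyte, oligodendrocyte lineage and endothelial and mural genes had medians of 0.050, 0.069 and 0.016, and neuron genes had a median of -0.0073, which turned positive after median centring (0.0043) and cyclic loess (0.0060). Bcas1 and Cnp of the oligodendrocyte lineage were higher at an unadjusted p under 0.05 (0.24 ± 0.07 and 0.23 ± 0.07, SE; limma adjusted p = 0.759 and 0.844), and Mag read -0.14 ± 0.08. The unadjusted p of Cnp was 0.0545 without mutant replicates 1 and 4. The astrocyte genes Fgfr3, Gfap and S1pr1 read 0.12 ± 0.07, -0.11 ± 0.06 and 0.14 ± 0.09, and the vascular genes Flt1, Pdgfrb and Tek 0.14 ± 0.08, 0.14 ± 0.08 and 0.093 ± 0.10 (SE), where Tek was -0.059 without mutant replicates 1 and 4. None of these lists held a gene past the threshold. Snap25, a synaptic protein, was the neuron gene of smallest p (-0.21 ± 0.09, SE; limma unadjusted p = 0.0345, adjusted 0.988), and Slc17a7 and Syt1 read -0.15 ± 0.13 and -0.047 ± 0.063. The unadjusted p of Snap25 was 0.123 without mutant replicates 1 and 4. The part of these cells in the values of the 9 genes was not tested.

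The mean profile of the 9 genes, each scaled over the arrays, was set against all other genes as a description. An r of at least 0.7 with it was found in 3.48% of 19929 genes. The same was found in 3 of 28 other microglia genes (Itgam, Olfml3 and Laptm5) and in 5 of 37 phagocytosis and complement genes (Rac2, Ctsl, C1qb, Cd68 and Ctsd). It was found in 2 of 20 adaptor signalling genes, and in 0 of 19 reactive microglia, 0 of 14 border macrophage and 0 of 11 blood leukocyte genes. The median r with the profile was 0.23 for other microglia genes and 0.14 for phagocytosis and complement genes. It was 0.27 for adaptor signalling genes and -0.047 for reactive microglia genes. Astrocyte genes had a median of 0.25 and endothelial and mural genes of 0.32, with 0 genes at 0.7 or above in both lists. Among single genes picked as high, r was 0.93 for Itgam, a chain of complement receptor CR3, 0.92 for Cx3cl1 and 0.80 for Snap25. Other genes of the same lists went the other way, with -0.85 for Tgfbr1 of the microglia list and -0.71 for the neuron gene Neurod2. The 9 neuron genes had a median of -0.058. The 10 named genes with the highest r were Tpgs1 (0.98), Cdh18 (0.98), Poldip3 (0.98), Ssna1 (0.97), Ctsa (0.97), Dmac2 (0.96), Slc46a2 (0.96), Bag2 (0.96), Tspan31 (0.95) and Msln (0.95), picked as the highest of all genes over 8 arrays. None of these 10 is on the lists of microglia genes.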

How the data were processed

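Each of the 35556 probe sets of the Affymetrix Mouse Gene 1.0 ST array came with 1 log2 value per pup in the authors' deposited table. Per the labels' design text the analysis used BRB-ArrayTools. The sources used here do not give the background correction, normalization or summarization. The values ran from 0.74 to 13.63, past the natural log of a 16-bit scanner's ceiling (11.09), and were therefore read as log2. Array medians lay between 4.94 and 5.01.

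Probe sets were named from the platform annotation, with symbols updated by Entrez identifier to GRCm38.p6. The 21789 probe sets naming 1 gene were used, with the highest mean kept per gene, which gave 19938 genes; 12146 probe sets had no name and 1621 several. The genotypes were set against each other in limma 3.58.1 under R 4.3.3, with genotype as the only term, 8 arrays, two-sided, Benjamini-Hochberg over all genes, a threshold of 0.05 and no filter on dim genes. The fit and the exact tests were tested on simulated data. The number of arrays limits the precision.

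Exact permutation tests used all 70 splits for a difference and all 40320 orders for a correlation, two-sided. Correlations were adjusted over 36 pairs of members and, separately, over 11 pairs with partners. The members and lists were chosen with earlier results of these data known. The rule for named genes took the 9 members, up to 3 genes of smallest p per list, the 10 genes most like the mean profile (leaving out predicted genes, clones, receptors of smell and small RNAs), and Bcl6, Neurod6 and sex chromosome genes as checks. Chosen after values were seen were the 11 partner pairs and their genes, Sall1, Spi1, the correlations within the other lists, and which 3 promoters are printed. So were the genes named for a high or low r with the mean profile. Alternatives were quantile normalization, median centring, cyclic loess, 2 filters on level, a trended or robust prior, array weights, a replicate block, averaging of probe sets, Y-linked expression as covariate, leaving out mutant replicates 1 and 4, exact tests, and leaving out each array.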

Additional observations from a re-analysis of the deposited data

Results flagged for a closer look

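In 8 cases 1 array of a genotype lay far from the other 3, past Dixon's critical value for 4 samples, among 114 groups of 4 tested. Chance flags about 1 in 20 groups. Csf1r read 5.61 in mutant replicate 4, and 5.33 to 5.37 in the other mutants. Sirpa read 7.81 in mutant replicate 2, and at least 7.98 in the other mutants. Syt1, a synaptic vesicle protein, read 11.26 in mutant replicate 2, and 11.34 to 11.35 in the other mutants. Plac8, a leukocyte gene, read 2.40 in mutant replicate 3, and 2.54 to 2.57 in the other mutants. Selplg read 4.60 in control replicate 1, and 4.38 to 4.41 in the other controls. Flt1, an endothelial receptor, read 6.13 in control replicate 1, and 6.33 to 6.34 in the other controls. Fcgr1, a high-affinity Fc receptor, read 3.89 in control replicate 1, and 4.50 to 4.57 in the other controls. Alas2, a red cell enzyme of heme synthesis, read 4.92 in control replicate 3, and 5.02 to 5.04 in the other controls.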

How the results depend on the processing

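None of the 9 genes passed the adjusted threshold in limma under any alternative in which it was tested. At an unadjusted p under 0.05 there were 2 of the 9 with all arrays, 1 with the Y-linked covariate, 1 without mutant replicates 1 and 4, 0 of the 3 genes left by a mean level of at least 5, 0 by exact permutation, and 1 to 3 when leaving out 1 array. A minimum mean level of 6 left none of the 9. With the minimum of 5 the median difference was -0.053, with 2 of 3 negative; otherwise it ran from -0.13 to -0.071, with 6 to 8 of 9 negative. The median r of the 36 pairs ran from 0.038 to 0.29. Pairs with an r of at least 0.7 numbered 1 with all arrays, 3 for deviations from the genotype means, 3 by Spearman's rho, 4 without mutant replicates 1 and 4 (6 arrays), and 1 to 3 when leaving out 1 array. Over all genes limma called 10 higher and 3 lower, 2 higher and 0 lower without mutant replicates 1 and 4, 3 and 1 with the Y-linked covariate, 8 and 1 after quantile normalization or cyclic loess, 9 and 1 after median centring, 10 and 2 or 11 and 1 with a minimum level of 5 or 6, and 3 to 9 higher and 0 to 4 lower when leaving out 1 array.

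Of 44 other named genes, sex chromosome genes aside, 0 passed the adjusted threshold under any alternative; without mutant replicates 1 and 4, 6 lost and 3 gained an unadjusted p under 0.05. Leaving out 1 array moved the difference by over 1.5 times, or turned it, in 6 of the 9 genes and in 31 of these 44. Signs turned for differences that no fit called. Leaving out 1 array, the difference ran from -0.13 to 0.065 for Cx3cr1, -0.12 to 0.021 for Aif1, -0.0076 to 0.077 for C1qa, -0.088 to 0.041 for Cd47, -0.0029 to 0.18 for Plac8, -0.16 to 0.070 for Fcgr1, -0.057 to 0.089 for Fcgr3, -0.019 to 0.089 for Il34, -0.023 to 0.061 for Sall1 and -0.022 to 0.048 for Spi1. The sign of Aif1 also turned after cyclic loess (0.00065) and quantile normalization (0.0089). With the Y-linked covariate it turned for C1qa (-0.00041), Tek (-0.061), Eif2s3y (0.00097), Fcgr1 (-0.0033) and Sall1 (-0.0012). Without mutant replicates 1 and 4 it turned for C1qa (-0.0015), Tek (-0.059), Xist (-0.10), Eif2s3y (0.079), Uty (0.021) and Fcgr1 (-0.0053), where Xist and the Y-linked genes are those that set these arrays apart. For the other genes the cause was not tested.

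The labels do not say that replicate numbers pair pups. Same-numbered mutants and controls correlated at -0.012, 0.029, 0.040 and 0.16 in their deviations from the group means, and 2 of 4 mutants correlated best with the control of their own number. Mutant replicate 1 correlated best with control replicate 2, and mutant replicate 2 with control replicate 1. Whether replicates 1 and 2 form a group apart from 3 and 4 was not tested. With the replicate block the 9 genes had 0 calls, 2 at an unadjusted p under 0.05, 7 negative differences and a median of -0.11, and all genes had 4 calls higher and 1 lower.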
